A study of Mus musculus with 9 samples.

Results

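The genes described here are the collagen genes of the mouse brain, chosen by symbol alone as every gene whose name consists of Col, a type number, the letter a and a chain number. The rule found 44 of the 53465 genes in the table, of which 11 encode fibrillar collagens, 8 encode collagens of basement membranes and 25 encode other collagens. RNA was measured by sequencing of polyadenylated RNA in whole brains of male C57BL/6 mice, 7 weeks old at the start, in 3 groups of 3 mice. CON mice received saline. DNP mice, a model of diabetic neuropathic pain, ate a diet with 60% fat for 4 weeks, were then given 50 mg/kg of streptozotocin, which destroys insulin-producing cells, for 7 days, and received saline. BAC mice had the same diet and toxin followed by 7 days of 8 mg/kg baclofen, a drug that activates GABA-B receptors. CON mice therefore lacked both the fat diet and the toxin, and these cannot be told apart in any comparison with them.

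Collagens are triple-helical proteins of the extracellular matrix, each built from 3 chains that are wound together in the endoplasmic reticulum. Fibrillar collagens form the cables of connective tissue, type IV collagen forms the sheet-like network of basement membranes, type VI forms beaded filaments, FACIT collagens sit on the surface of fibrils, and transmembrane collagens span the membrane of the cell that makes them. The brain holds little fibrillar matrix. Its collagen lies in the meninges, around blood vessels and in the choroid plexus, although neurons also express several types.

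Totals were 13107382 to 16008129 counts per library. The libraries differed in which brain regions they represented, within groups as well as between them. Summed markers of brainstem and spinal cord (9 genes, in CPM, which is counts scaled by library total and TMM factor) were 371, 456 and 398 in DNP replicate 1, BAC replicate 1 and BAC replicate 3, were 28.6 in CON replicate 2, and were at most 4.57 in the other 5 libraries. The 9 cerebellar markers ranged from 37.6 to 5047 CPM, and the highest value was in CON replicate 2. The 7 markers of choroid plexus epithelium ranged from 26.7 to 1390 CPM. No marker of the 9 brainstem genes, the 9 cerebellar genes, the 10 genes of brain endothelium or the 12 genes of leptomeningeal fibroblasts was at 0 in all libraries. For each comparison, the counts of collagen genes by direction are therefore also given without the 4 libraries with the highest brainstem sums, a choice made after the data were seen. In whole tissue, fewer cells of a type and less RNA per cell cannot be told apart.

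Mean levels per length were led by a type VI and a type IV chain, followed by 2 fibrillar chains. FPKM, the authors' counts scaled by gene length and library size, allows levels of different genes to be compared. Col6a1, a chain of type VI collagen, led with a mean of 25.3 FPKM over the 9 libraries, and was followed by Col4a2 with 11.1, Col5a1 with 6.22, Col11a2 with 5.94 and Col4a1 with 5.11 FPKM. Col6a1 ranged from 4.19 to 75.3 FPKM and did not lead in every library. In CON replicate 2, for example, Col18a1 was at 14.4 and Col6a1 at 5.38 FPKM. In BAC replicate 3 Col4a2 was at 9.30 and Col6a1 at 4.19 FPKM. Col4a1 and Col4a2 encode the chains of the type IV collagen found in nearly every basement membrane, and Col5a1 and Col11a2 encode chains that start fibrils and limit their width. A mean of at least 1 FPKM was reached by 21 collagen genes, namely 8 fibrillar, 3 basement membrane and 10 other. The lowest level was that of Col10a1, a collagen of growth plate cartilage, with 0 to 0.122 FPKM, and it was the only one of the 44 that was too low to be tested.

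**Figure D1:**
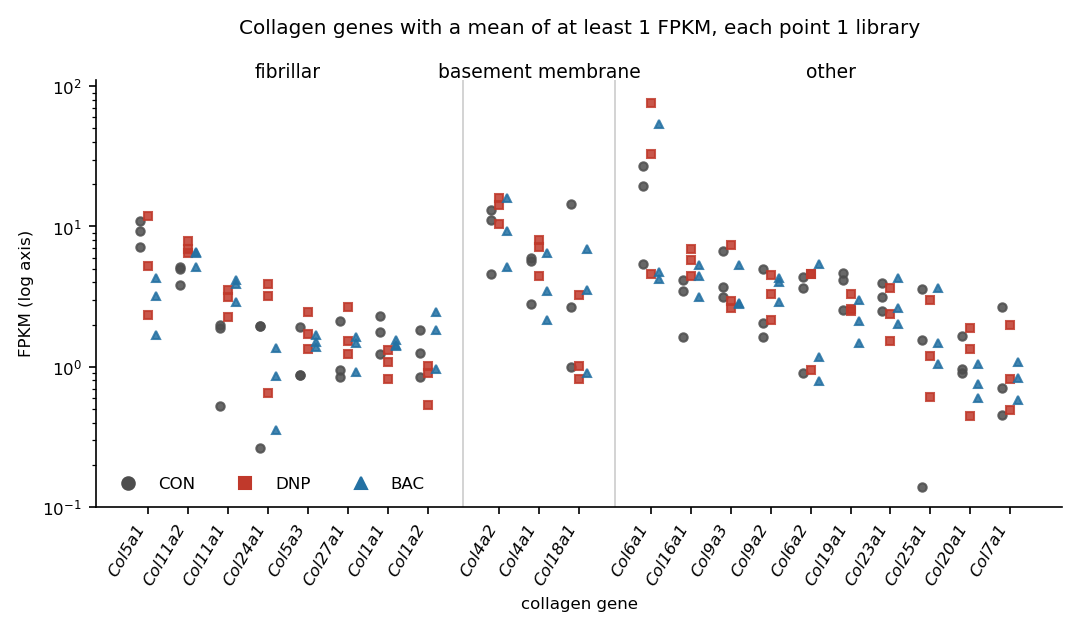
FPKM (log axis) of the collagen genes with a mean of at least 1 FPKM, 1 point for each of 9 libraries, by class and group. Col6a1, Col18a1, Col24a1 and Col25a1 spread over more than 10-fold, whereas Col11a2 stayed between 3.84 and 7.92 FPKM.

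The 3 classes took shares of collagen RNA that differed between groups by less than their spread. Fibrillar genes made up 25.3% ± 2.85 of the summed collagen FPKM in CON, 23.5% ± 6.85 in DNP and 25.1% ± 7.12 in BAC (mean ± SD, n = 3 in each). Basement membrane genes made up 24.5% ± 5.2, 21.3% ± 5.83 and 22.8% ± 3.82, and the other collagens made up 50.2% ± 7.25, 55.1% ± 12.5 and 52.1% ± 10.9. For each of these classes the group means differed by less than 1 SD of any group. Among the other collagens, the 4 transmembrane genes made up 6.27% ± 1.1 in CON, 3.89% ± 0.749 in DNP and 6.78% ± 1.77 in BAC, with every DNP library below every CON and BAC library. As shares of summed counts, which are not divided by length, the same genes overlapped between the groups. The total was less even, at 104.3, 80.6 and 96.7 FPKM in CON, 74.9, 155.4 and 130.2 in DNP, and 71.2, 132.9 and 73.6 in BAC. The 4 lowest totals were those of the 4 libraries with the highest brainstem sums, and type VI collagen alone ranged from 6.59 to 80.9 FPKM.

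**Figure D2:**
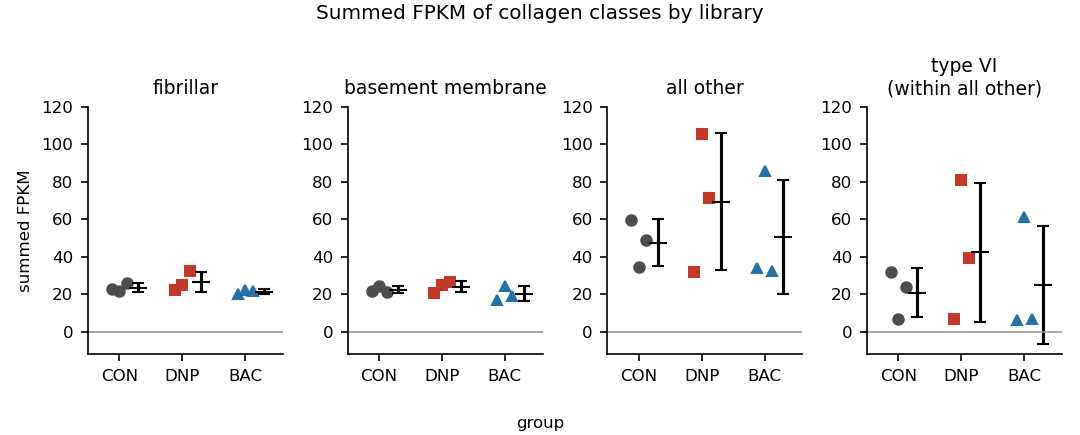
Summed FPKM of fibrillar, basement membrane and all other collagen genes and, within the last, of type VI, by group. Points are libraries, and the bars beside them are the mean and 1 SD (n = 3). Fibrillar and basement membrane sums stayed between 17.0 and 32.4 FPKM, while type VI ran from 6.59 to 80.9.

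Collagen genes varied between libraries of the same group more than most genes did. Libraries of a group also differed in regional content, as given above. The comparison was not matched for level, and mean counts ran from 14.3 for Col6a6 to 1700 for Col6a1. The pooled SD within groups of log2 CPM had a median of 0.67 over the 43 tested collagen genes, against 0.35 over all 18501 tested genes. The median was 0.55 for fibrillar, 0.71 for basement membrane and 0.75 for other collagens. In 7 collagen genes the SD exceeded 1.21, the 95th percentile of all genes, and these were Col6a1 (1.86), Col25a1 (1.64), Col18a1 (1.50), Col6a4 (1.42), Col24a1 (1.39), Col6a2 (1.36) and Col6a5 (1.27). The steadiest were Col11a2 (0.23), Col12a1 (0.26) and Col1a1 (0.30).

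In DNP against CON, no collagen gene passed the test, and the genes with the smallest p were Col6a3 and Col11a2, with higher values in DNP, and Col1a1 and Col4a6, with lower ones. The comparison asks what the diabetic pain model did to the brain's collagen genes. Of the 43 tested genes, 24 had a higher and 19 a lower fitted level in DNP, with a median log2 fold change of 0.18 (all genes 0.01). The medians were 0.45 for fibrillar, 0.34 for basement membrane and 0.01 for other collagens. By the quasi-likelihood test of edgeR, adjusted over all 18501 genes by the Benjamini-Hochberg method, 0 collagen genes had an adjusted p under 0.05, as did 0% of all genes. DESeq2 also called 0 collagen genes, while it called 1.44% of all genes. At an unadjusted p under 0.05, 2 collagen genes were higher (Col6a3 and Col11a2) and 2 lower (Col1a1 and Col4a6), against 5.71% and 5.46% of all genes. The libraries of the groups did not overlap for 6 collagen genes that were higher in DNP and 1 that was lower, against 9.59% and 8.63% of all genes. The 4 genes at an unadjusted p under 0.05 became 7 when any 1 of CON replicates 1, 2 and 3 was left out and 2 when DNP replicate 1 was. Over all genes the 2067 genes at that level became 2129, 1751, 1500 and 1783. Fits with a library left out applied the filter on low counts anew, so their all-gene counts need not be over the same 18501 genes. Without the 4 libraries with high brainstem sums, fitted levels were higher for 27 and lower for 16 collagen genes, with a median of 0.23 (all genes 0.03). With library totals as the only scaling, 4 collagen genes were higher and 1 lower at an unadjusted p under 0.05. Over all genes that split moved from 1056 higher and 1011 lower to 1317 and 760.

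In BAC against DNP, which asks what baclofen did within the model, Col1a2 and Col3a1 had higher fitted levels in BAC and Col5a1 a lower one, again without passing the test. Fitted levels were higher in BAC for 18 and lower for 25 of the 43 genes. Medians were -0.25 for fibrillar, -0.01 for basement membrane and -0.13 for other collagens (all genes -0.01). Neither edgeR nor DESeq2 called a collagen gene after adjustment, and over all genes they called 0% and 0.00856%. At an unadjusted p under 0.05 in edgeR, 1 collagen gene, Col1a2, was higher and 0 were lower, against 1.37% and 1.00% of all genes. Groups did not overlap for 3 higher genes (Col17a1, Col1a1 and Col4a6) and 0 lower genes, against 3.38% and 3.41%. The single gene became 4 when DNP replicate 1 or BAC replicate 2 was left out, 3 when CON replicate 2 was, 2 when DNP replicate 2 was, and 0 when DNP replicate 3 or BAC replicate 1 was. The count over all genes, 438, moved as well, to 1390, 1484, 698, 350, 216 and 223 in these 6 fits in the same order. Without the 4 libraries with high brainstem sums, which left BAC with 1 library, fitted levels were higher for 22 and lower for 21 collagen genes. Their median was then 0.01 (all genes 0.00).

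In BAC against CON, Col11a1 and Col6a3 were higher and Col5a1 and Col19a1 lower, and none passed the test. Fitted levels were higher for 23 and lower for 20 genes, with medians of 0.27 for fibrillar, 0.02 for basement membrane and 0.01 for other collagens (all genes -0.02). The adjusted p was under 0.05 for 0 collagen genes in edgeR and in DESeq2, against 0% and 0.396% of all genes. At an unadjusted p under 0.05 in edgeR, 2 were higher and 2 lower, against 4.46% and 3.30%. Groups did not overlap for 2 higher genes, Col11a1 and Col6a3, and for 1 lower gene, Col5a1, against 7.21% and 6.23%. The 4 genes became 2 without CON replicate 3 and 0 without BAC replicate 3, and the 1436 of all genes became 892 and 604. With library totals as the only scaling, 4 collagen genes were higher and 2 lower, and over all genes the split moved from 826 higher and 610 lower to 1154 and 395. Without the 4 libraries with high brainstem sums, fitted levels were higher for 24 and lower for 19 collagen genes, with a median of 0.07 (all genes 0.01). The 3 comparisons share libraries in pairs, so their values are given side by side and are not independent.

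**Figure D3:**
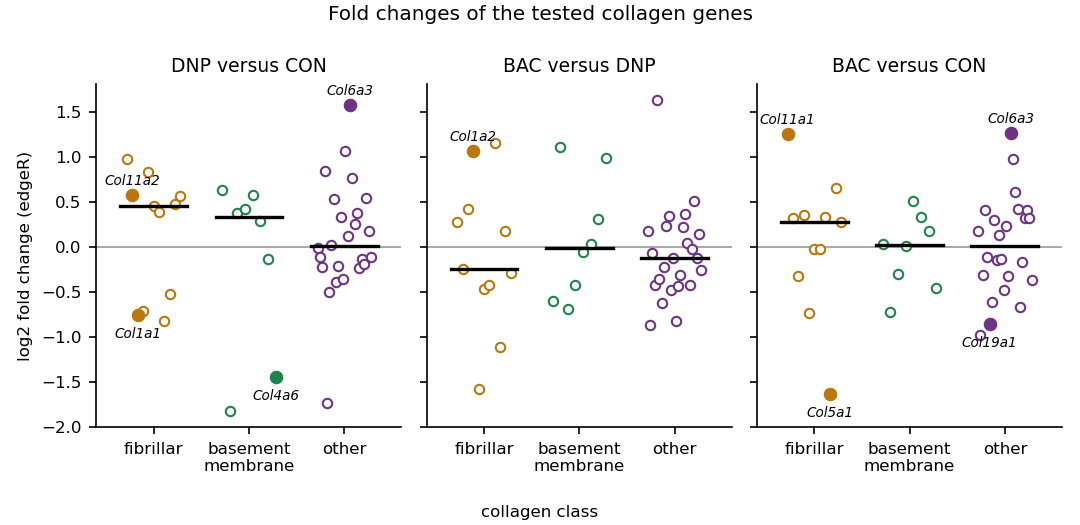
Log2 fold changes of the 43 tested collagen genes from edgeR in the 3 comparisons, by class. Each circle is a gene, filled and named where the unadjusted p was under 0.05, and bars are class medians. Circles lie on both sides of 0 in every class, and none passed adjustment over all genes.

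Type I and type III collagens, the fibrils of connective tissue made by fibroblasts, had their lowest group means in DNP. Col1a1, the major chain of type I, was at 9.15, 15.9 and 12.6 CPM in CON, at 9.05, 7.58 and 5.65 in DNP, and at 9.23, 10.2 and 10.5 in BAC. Every DNP library lay below every CON and BAC library on this scale, but DNP replicate 1 (9.05 CPM) and CON replicate 1 (9.15 CPM) were close, and in FPKM the CON and DNP libraries overlapped. The log2 fold change of Col1a1 in DNP against CON was -0.76 (SE 0.25, edgeR adjusted p = 0.366), that in BAC against DNP was 0.42 (SE 0.25, adjusted p = 0.998), and that in BAC against CON was -0.33 (SE 0.25, adjusted p = 0.761). Over the 19 alternative fits the first ranged from -0.94 to -0.41.

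Col1a2, the partner chain of type I, was at 14.5, 29.4 and 21.0 CPM in CON, 16.4, 14.7 and 8.54 in DNP, and 37.8, 16.1 and 28.8 in BAC. DNP replicates 1 and 2 lay above the lowest CON library and DNP replicate 1 above the lowest BAC library, so the groups overlapped. Its log2 fold changes were -0.71 (SE 0.39, adjusted p = 0.527) in DNP against CON, 1.06 (SE 0.39, adjusted p = 0.998) in BAC against DNP and 0.35 (SE 0.38, adjusted p = 0.848) in BAC against CON. Col3a1, which is found with type I in soft tissue and vessel walls, was at 1.72, 3.99 and 2.04 CPM in CON, 0.652, 2.59 and 1.12 in DNP, and 3.56, 2.42 and 3.78 in BAC. DNP replicate 2 overlapped both other groups. The log2 fold change of Col3a1 was -0.82 (SE 0.53, adjusted p = 0.591) in DNP against CON and 1.15 (SE 0.53, adjusted p = 0.998) in BAC against DNP. Without DNP replicate 2 they were -1.54 and 1.87, without CON replicate 2 or DNP replicate 1 the former was -0.37 or -0.48, and without the 4 libraries with high brainstem sums they were -0.02 and 0.40. In DNP against CON, Col1a2 was -0.43 when CON replicate 2 was left out and -0.47 when DNP replicate 3 was, and in BAC against DNP it was 0.48 without the 4 libraries. Col1a1 in BAC against DNP was 0.26 without DNP replicate 3 and 0.64 without the 4 libraries, and in BAC against CON it was -0.12 without CON replicate 2.

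Markers of leptomeningeal and arachnoid fibroblasts, the cells of the brain's inner coverings, also had their lowest summed level in DNP. The summed level of the 12 genes was 100.5 to 137.8 CPM in CON, 56.3 to 79.8 in DNP and 105.0 to 116.7 in BAC, so that every DNP library was below all others. All 12 had a negative fitted log2 fold change in DNP against CON, with a median of -0.85, although Crabp2 (-0.00) and Tbx18 (-0.14) were near 0. The number fell to 11 in some fits, such as library totals, limma on FPKM, or without CON replicate 2 or 3. It was 10 without the 4 libraries with high brainstem sums. An unadjusted p under 0.05 was found for 6 of the 12, against 5.46% of all genes that were lower at that level. In BAC against DNP 11 of the 12 were positive, with a median of 0.87, and 7 had an unadjusted p under 0.05, against 1.37% of all genes. None had an adjusted p under 0.05 in edgeR in any comparison. The list was chosen with earlier results of these data known, so its counts are a description and not a test of the list. Igf2, a growth factor gene of the meninges, had the highest counts of the list, with 892, 954 and 1074 counts in CON, 368, 575 and 666 in DNP and 776, 683 and 959 in BAC. Within DNP the sum was highest in replicate 2 (79.8 CPM) and lowest in replicate 1 (56.3 CPM), as was Col3a1. Col1a1 and Col1a2 were instead highest in replicate 1 and lowest in replicate 3. The part of these cells in the values of Col1a1, Col1a2 and Col3a1 was not tested.

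**Figure D4:**
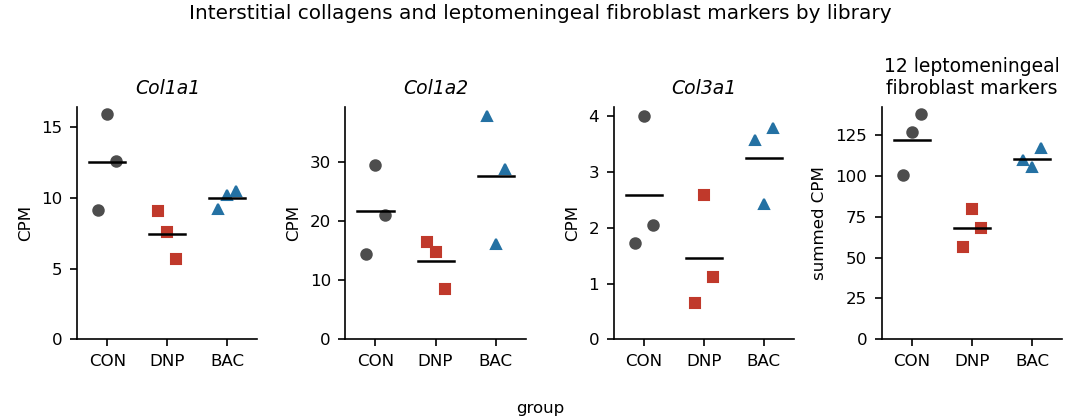
CPM after TMM scaling of Col1a1, Col1a2 and Col3a1, and summed CPM of 12 markers of leptomeningeal fibroblasts, by group. Points are libraries and lines are group means. The 3 DNP libraries are lowest for Col1a1 and for the markers, and overlap with other groups for Col1a2 and Col3a1.

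Type V and type XI collagens, which nucleate fibrils, did not share a direction. Col5a1 was at 85.9, 61.6 and 99.8 CPM in CON, 20.6, 46.2 and 104 in DNP, and 26.5, 38.3 and 14.5 in BAC. All BAC libraries were below all CON libraries, while DNP overlapped both. Its log2 fold change in BAC against CON was -1.64 (SE 0.57, edgeR adjusted p = 0.628). The values were -1.11 (SE 0.56, adjusted p = 0.998) in BAC against DNP and -0.53 (SE 0.55, adjusted p = 0.763) in DNP against CON. Over alternatives the first ranged from -2.01 to -1.26, while the second was -0.34 without DNP replicate 3, and the third was -1.30 without that library and -0.14 without DNP replicate 1. Col5a2 (mean 0.701 FPKM) and Col5a3 (1.53 FPKM), the other chains of type V, had no p under 0.05 in any comparison.

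Col11a2, a chain of type XI known from cartilage and the inner ear, was at 42.5, 29.7 and 40.1 CPM in CON, 50.9, 54.5 and 61.5 in DNP, and 38.2, 51.5 and 50.4 in BAC. DNP lay above CON in all libraries, with a log2 fold change of 0.57 (SE 0.18, adjusted p = 0.36), which ranged from 0.42 to 0.67 over the alternatives. Col11a1, its partner chain in type XI, was at 28.7, 7.41 and 29.2 CPM in CON, 50.7, 32.5 and 44.8 in DNP, and 39.4, 61.1 and 54.5 in BAC. Both DNP and BAC lay above CON in all libraries. Its log2 fold changes were 0.97 (SE 0.46, adjusted p = 0.465) in DNP against CON and 1.25 (SE 0.46, adjusted p = 0.628) in BAC against CON. The value of Col11a1 in DNP against CON was 0.55 without CON replicate 2 and 0.42 without the 4 libraries with high brainstem sums. Of the remaining fibrillar genes, Col24a1 ranged from 0.262 to 3.90 FPKM and Col27a1 from 0.846 to 2.67. Col2a1, the collagen of cartilage, ranged from 0.429 to 1.04 FPKM.

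Basement membrane collagens were led by Col4a2 and Col4a1, which form the network under the vascular endothelium and beneath the pia mater. Col4a2 was at 13.2, 4.58 and 11.2 FPKM in CON, 10.4, 14.3 and 15.9 in DNP, and 5.14, 16.0 and 9.30 in BAC. Col4a1 was at 5.92, 2.78 and 5.68 FPKM in CON, 4.41, 7.98 and 7.12 in DNP, and 2.16, 6.48 and 3.48 in BAC. Both were lowest in CON replicate 2 and BAC replicate 1, and the smallest unadjusted p of either gene in edgeR was 0.173. The summed markers of brain endothelium (10 genes) were 356.9 to 423.5 CPM in CON, 375.9 to 470.5 in DNP and 274.9 to 364.8 in BAC. All DNP sums were above all BAC sums, while the type IV chains overlapped between those groups, and the part of endothelial content in their levels was not tested.

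The 2 genes lie head to head on chromosome 8 and are transcribed away from each other from starts that overlap by 22 bases in the GENCODE annotation of GRCm38. Their promoters, 250 bases before to 50 after the start, share 78 bases. Both are shown here because the 2 chains followed each other over the libraries, with those of Col8a1 and Col8a2, which did so from separate chromosomes. Sequences are from RefSeq (GRCm38.p6), 5′ to 3′ on the strand of each gene, at chr8:11312777-11313076 (minus strand), chr8:11312555-11312854 (plus strand), chr16:57754688-57754987 (minus strand) and chr4:126286544-126286843 (plus strand). Capitals mark CCAAT (or ATTGG) and GGGCGG (or CCGCCC), that is, a CCAAT box or a GC box on either strand.
Col4a1: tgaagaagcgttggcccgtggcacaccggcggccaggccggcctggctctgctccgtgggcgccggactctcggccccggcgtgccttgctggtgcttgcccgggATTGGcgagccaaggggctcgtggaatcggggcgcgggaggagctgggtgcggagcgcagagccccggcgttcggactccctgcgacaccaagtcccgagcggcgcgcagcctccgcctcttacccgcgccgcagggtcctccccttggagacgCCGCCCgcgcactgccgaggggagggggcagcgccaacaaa
Col4a2: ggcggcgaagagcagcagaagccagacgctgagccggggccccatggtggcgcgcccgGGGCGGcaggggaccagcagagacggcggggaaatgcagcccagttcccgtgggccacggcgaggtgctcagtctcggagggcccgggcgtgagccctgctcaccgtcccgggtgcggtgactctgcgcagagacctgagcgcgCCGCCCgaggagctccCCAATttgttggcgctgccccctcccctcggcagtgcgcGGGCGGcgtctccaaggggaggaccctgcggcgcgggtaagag
Col8a1: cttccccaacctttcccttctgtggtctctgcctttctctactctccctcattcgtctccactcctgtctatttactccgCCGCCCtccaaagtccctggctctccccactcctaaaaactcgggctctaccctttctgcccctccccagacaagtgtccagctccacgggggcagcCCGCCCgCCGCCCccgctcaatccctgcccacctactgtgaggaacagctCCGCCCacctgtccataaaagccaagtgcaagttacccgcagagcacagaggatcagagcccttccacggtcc
Col8a2: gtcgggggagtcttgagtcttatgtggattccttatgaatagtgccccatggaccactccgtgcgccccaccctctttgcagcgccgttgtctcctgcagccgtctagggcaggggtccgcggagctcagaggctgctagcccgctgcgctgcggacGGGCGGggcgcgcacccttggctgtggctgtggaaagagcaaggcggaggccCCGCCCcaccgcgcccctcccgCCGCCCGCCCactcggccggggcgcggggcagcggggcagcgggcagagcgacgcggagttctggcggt

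The Col4a1 and Col4a2 windows each hold 1 CCAAT box and hold 1 and 3 GC boxes, of which 1, in the shared stretch, is the same site read from either strand. The Col8a1 and Col8a2 windows hold 4 GC boxes each, with 2 of those in Col8a2 overlapping, and no CCAAT box. None of the 4 windows holds TATAAA or TTTATA. Promoters were found for 35 of the 44 collagen genes (38 windows). GC boxes were in 60.5% of the collagen windows and in 35.7% of all 32851 windows, CCAAT boxes in 34.2% and 37.4%, and TATA boxes in 13.2% and 13.6%. By class, GC boxes were in 6 of 8 fibrillar, 5 of 8 basement membrane and 12 of 22 other windows. These matches are descriptions of letters and not of sites in use.

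Col18a1, a collagen of vessel and epithelial basement membranes and the source of endostatin, behaved differently from the type IV chains. It was at 0.990, 14.4 and 2.68 FPKM in CON, 3.25, 0.819 and 1.01 in DNP, and 6.91, 0.902 and 3.54 in BAC. The highest value was in CON replicate 2, the library with the highest cerebellar sum (5047 CPM), and the next was in BAC replicate 1, which had the second highest cerebellar sum (2527 CPM). The part of regional content in these values was not tested. No p of Col18a1 in edgeR was under 0.05, and the groups overlapped in all comparisons.

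Col4a6, which pairs with Col4a5 in some basement membranes, was low, at 0.995, 4.78 and 1.90 CPM in CON, 0.507, 0.819 and 1.44 in DNP, and 2.47, 1.52 and 1.57 in BAC. DNP was below BAC in all libraries and overlapped CON. DNP replicate 3 (1.44 CPM) and BAC replicate 2 (1.52 CPM) were close, with 22 counts each. The log2 fold change of Col4a6 was -1.45 (SE 0.61, adjusted p = 0.432) in DNP against CON and 0.99 (SE 0.62, adjusted p = 0.998) in BAC against DNP. The former was -0.64 without CON replicate 2 and -0.35 without the 4 libraries with high brainstem sums, and the latter was 0.43 without those. Col15a1, a relative of Col18a1 that is named after its values were seen, had all DNP libraries (9.42, 9.22 and 11.1 CPM) above all CON libraries (7.36, 3.92 and 7.94 CPM), with a log2 fold change of 0.63 (SE 0.40, adjusted p = 0.584), which was 0.37 without CON replicate 2. Col4a5, Col4a4 and Col4a3 had means of 0.855, 0.199 and 0.156 FPKM.

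Type VI collagen, a filament of the matrix next to cells, held the widest range of any group of collagens. Col6a1 was at 27.0, 5.38 and 19.5 FPKM in CON, 4.57, 75.3 and 32.9 in DNP, and 4.77, 53.7 and 4.19 in BAC. The highest library was 18 times the lowest, and each group held both high and low libraries. Col6a2, whose protein joins that of Col6a1, was at 4.37, 0.905 and 3.63 FPKM in CON, 0.953, 4.61 and 4.56 in DNP, and 0.795, 5.40 and 1.17 in BAC. For both genes the 4 lowest libraries were the 4 with the highest brainstem sums (28.6 to 456 CPM, against at most 4.57 in the rest), and the part of regional content was not tested. The smallest edgeR p of the 2 genes was 0.408, with overlap in all comparisons.

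Col6a3, the largest chain of type VI, did not follow this pattern. It was at 4.38, 2.21 and 3.51 CPM in CON, 16.4, 5.19 and 8.47 in DNP, and 7.05, 5.25 and 12.0 in BAC. All DNP and all BAC libraries lay above all CON libraries. Its log2 fold change was 1.57 (SE 0.49, edgeR adjusted p = 0.354) in DNP against CON, the smallest p of any collagen gene there, and 1.26 (SE 0.49, adjusted p = 0.628) in BAC against CON. Over alternatives the first ranged from 0.46, with limma on log2(FPKM + 1), to 1.87, and its smallest adjusted p, by DESeq2, was 0.102. Without DNP replicate 1 it was 1.02, and without the 4 libraries with high brainstem sums the values were 0.79 and 0.42. The summed markers of oligodendrocytes (6 genes, none at 0) were 2954.5, 2640.8 and 2111.5 CPM in CON, 8905.8, 3539.1 and 6723.4 in DNP, and 6703.6, 2850.4 and 9087.2 in BAC. All DNP sums and 2 of 3 BAC sums were above all CON sums. Of the 6 genes, 6 in DNP against CON and 5 in BAC against CON were higher at an unadjusted p under 0.05. Over all genes these shares were 5.71% and 4.46%. Within DNP and within BAC, Col6a3 was also higher in the libraries with high brainstem sums, DNP replicate 1 and BAC replicates 1 and 3. Within CON it was lowest in CON replicate 2, which had the highest brainstem sum there. The parts of oligodendrocytes and of regional content in the level of Col6a3 were not tested. All 6 type VI genes had positive fitted log2 fold changes in DNP against CON (median 0.57). This was also so with library totals or RLE size factors, but 5 of 6 were positive without the 4 libraries with high brainstem sums or without DNP replicate 2, 4 of 6 without CON replicate 2 or with replicate number as a block, and 3 of 6 without DNP replicate 3.

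FACIT collagens, which coat fibrils, included 5 genes with a mean of at least 1 FPKM. Col16a1 was at 41.9, 15.3 and 33.7 CPM in CON, 65.9, 42.1 and 54.4 in DNP, and 28.3, 43.3 and 49.4 in BAC. DNP lay above CON in all libraries, closely so for DNP replicate 2 (42.1) and CON replicate 1 (41.9), with a log2 fold change of 0.84 (SE 0.37, adjusted p = 0.446), which was 0.51 without CON replicate 2 and 0.35 without the 4 libraries with high brainstem sums. Col19a1, a FACIT collagen that interneurons express, was at 34.5, 19.9 and 37.9 CPM in CON, 20.1, 19.6 and 25.5 in DNP, and 15.8, 23.8 and 11.4 in BAC. BAC replicate 2 overlapped CON, and the log2 fold change in BAC against CON was -0.86 (SE 0.32, adjusted p = 0.628). Col9a1, also named after its values were seen, had all DNP libraries (1.09, 1.37 and 1.38 CPM) above all CON libraries (1.06, 0.927 and 0.632 CPM), with a log2 fold change of 0.54 (SE 0.39, adjusted p = 0.635), which was 0.36 without CON replicate 3. The separation was narrow and rested on scaling, with 15 counts in DNP replicate 1 and 16 in CON replicate 1.

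Col9a3, a type IX chain, was at 3.73, 6.72 and 3.15 FPKM in CON, 2.94, 2.63 and 7.35 in DNP, and 5.35, 2.79 and 2.86 in BAC, so that 1 library in each group stood above the rest. Of its exonic bases, 6.07% also belong to Tcfl5 on the other strand, and reads there could not be assigned without strand. Col9a2, its partner, was at 1.64, 5.00 and 2.04 FPKM in CON, 4.49, 3.29 and 2.16 in DNP, and 3.99, 2.91 and 4.29 in BAC. Col20a1 ranged from 0.444 to 1.90 FPKM over the libraries, and Col12a1, Col14a1 and Col22a1 had means of 0.956, 0.250 and 0.254 FPKM.

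Transmembrane collagens had negative fitted log2 fold changes in 4 of 4 genes in DNP against CON (median -0.30), but in 3 of 4 with limma on log2 FPKM or without any 1 of CON replicates 1 and 2 and DNP replicates 1 and 2, and in 2 of 4 without the 4 libraries with high brainstem sums. Col25a1, a neuronal collagen found in amyloid plaques, was at 3.56, 0.140 and 1.55 FPKM in CON, 1.19, 0.609 and 3.01 in DNP, and 1.05, 1.47 and 3.64 in BAC. The lowest library and one of the highest were both CON libraries. Col23a1 ranged from 1.53 to 4.31 FPKM. Col17a1, a component of hemidesmosomes, was at 1.26, 11.4 and 1.76 CPM in CON, 1.01, 1.57 and 1.71 in DNP, and 8.14, 3.25 and 2.02 in BAC. BAC lay above DNP in all libraries, with a log2 fold change of 1.63 (SE 0.87, adjusted p = 0.998), which was 0.87 without BAC replicate 1. The value in DNP against CON, -1.74 (SE 0.88, adjusted p = 0.491), was 0.12 without the 4 libraries with high brainstem sums, and -0.08 without CON replicate 2.

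Among the remaining collagens, Col7a1, which forms the anchoring fibrils of epithelia, ranged from 0.457 to 2.68 FPKM, with the highest value in CON replicate 2. Col8a1 and Col8a2, short-chain collagens of the endothelium and the cornea, had means of 0.671 and 0.937 FPKM. Col26a1 and Col28a1 had means of 0.602 and 0.199 FPKM. Within all these types no gene had an edgeR p under 0.05 in any comparison.

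Chains that are wound into the same molecule followed each other in some types and not in others. Of 11 pairs with both chains tested, a correlation over the 9 libraries on log2 CPM was computed for 9. Each had an exact two-sided permutation test, with adjustment over the 9 pairs. The closest pair was Col4a1 and Col4a2, with r = 0.95 (exact permutation p = 0.000237, adjusted 0.00213) and rho = 0.92 (p = 0.00131, adjusted 0.0118). Its r was 0.97 after removal of group means and 0.90 without the 2 libraries farthest from the median of Col4a1. Gene pairs that do not share a molecule were not correlated for comparison. The part of endothelial and regional content in the correlation was not tested. Of the exonic bases of Col4a1, 0.29% are shared with Col4a2, where reads could not be assigned without strand.

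Col8a1 and Col8a2 had r = 0.91 (exact permutation p = 0.000931, adjusted 0.00419) and rho = 0.83 (p = 0.00827, adjusted 0.0372). Within groups r was 0.93, and it was 0.73 without the 2 farthest libraries. Col8a2 was at 4.91, 2.64 and 4.99 CPM in CON, 3.40, 1.23 and 6.37 in DNP, and 8.93, 1.66 and 5.10 in BAC. The summed choroid plexus markers, 520.3, 279.4 and 502.2 CPM in CON, 317.9, 27.0 and 1389.8 in DNP, and 1262.9, 26.7 and 28.9 in BAC, were low in DNP replicate 2 and BAC replicate 2, where both chains were lowest, and also in BAC replicate 3, where they were not. Their part in the correlation was not tested.

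Col1a1 and Col1a2 had r = 0.70 (exact permutation p = 0.0347, adjusted 0.104) and rho = 0.72 (p = 0.0369, adjusted 0.111), which did not pass adjustment. Its r was 0.30 without CON replicate 2 and DNP replicate 3, the libraries farthest from the median of Col1a1, whose removal also narrows the range. With 1 library left out r was 0.46 to 0.89, and it passed adjustment (0.0205) at 0.89, without BAC replicate 1. Col4a3 and Col4a4 had r = 0.60 (adjusted exact permutation p = 0.178), and Col4a5 and Col4a6 had r = 0.45 (adjusted 0.332), which was 0.78 (adjusted 0.0424) without DNP replicate 1 and -0.29 without CON replicate 2 and BAC replicate 1, the libraries farthest from the median of Col4a5. Col5a1 and Col5a2 had a negative r of -0.59 (adjusted exact permutation p = 0.178). The values were -0.31 for Col6a1 and Col6a3, -0.08 for Col9a1 and Col9a2, and -0.07 for Col9a2 and Col9a3. For Col6a1 with Col6a2, and for Col11a1 with Col11a2, libraries fell into separate clusters of one of the genes, and no pooled r is given.

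**Figure D5:**
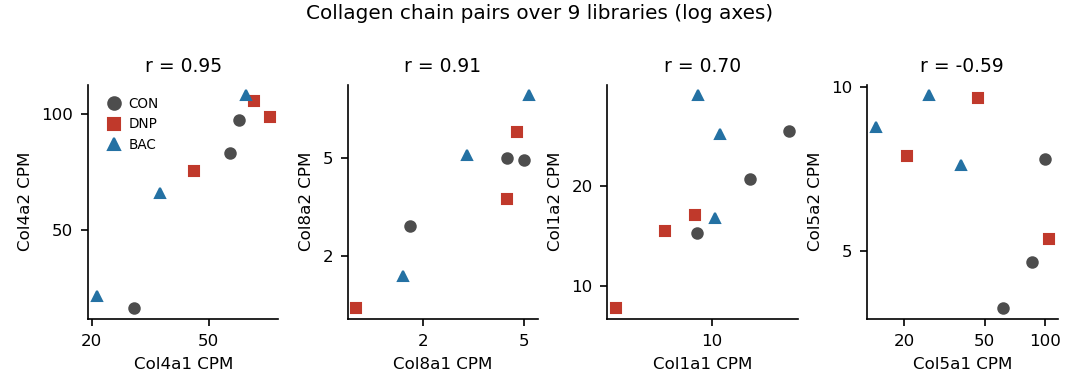
CPM after TMM scaling of 4 pairs of collagen chains (log axes), 1 point for each of 9 libraries, with Pearson's r of log2 CPM. Points of Col4a1 with Col4a2 and of Col8a1 with Col8a2 lie along a rising line, those of Col1a1 with Col1a2 less so, and those of Col5a1 with Col5a2 do not.

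Genes that make, anchor or remove collagen were examined in 6 lists, and in each list and comparison 0 genes had an adjusted p under 0.05 in edgeR. The lists were chosen with earlier results of these data known. Over all genes, 5.71% were higher and 5.46% lower at an unadjusted p under 0.05 in DNP against CON. Among 17 tested genes of procollagen modification and folding, 0 had an unadjusted p under 0.05 in DNP against CON, and P4ha3, a prolyl hydroxylase subunit, had the smallest (log2 fold change 1.02, SE 0.52, edgeR adjusted p = 0.492). Of 11 genes of procollagen cleavage and cross-linking, 1 was higher at that level, Pcolce2, which enhances procollagen cleavage (1.05, SE 0.39). Of 8 genes of collagen breakdown, 0 reached it, and Ctsk, a collagen-degrading protease, was 2.59, 2.14 and 2.88 CPM in CON and 3.62, 3.41 and 3.74 in DNP, without overlap. Of 8 collagen receptors, Adgrg1, which binds type III collagen in the developing cortex, was higher and Ddr2, a receptor kinase for fibrillar collagen, was lower at an unadjusted p under 0.05, with log2 fold changes of 0.66 and -0.69.

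Of 16 partners of basement membrane collagens, 3 laminin chains were lower and 0 genes higher at an unadjusted p under 0.05 in edgeR (5.46% and 5.71% of all genes). Lamc3 was at 6.70, 9.34 and 8.71 CPM in CON, 2.46, 4.44 and 2.63 in DNP, and 4.65, 4.14 and 3.40 in BAC, with a log2 fold change of -1.37 (SE 0.29, adjusted p = 0.294) in DNP against CON. Lamb1 and Lama2 had log2 fold changes of -0.83 and -0.64. Of 10 proteoglycans and glycoproteins that bind fibrils, 4 were lower and 0 higher at that level in DNP against CON. In BAC against DNP 4 were higher and 0 lower at that level, against 1.37% and 1.00% of all genes. Fmod, which binds type I fibrils, was at 15.9, 25.8 and 21.0 CPM in CON, 6.95, 11.7 and 6.17 in DNP, and 14.7, 22.0 and 14.5 in BAC. All DNP libraries were below all CON and BAC libraries, with log2 fold changes of -1.34 (SE 0.31) and, in BAC against DNP, 1.04 (SE 0.31). Dcn, which encodes decorin, had values of -1.16 and 1.09. The summed level of the 12 fibroblast markers above was also lowest in the DNP libraries. Of the 12 genes, 5 were lower without overlap with CON, against 8.63% of all genes. The part of these cells in these values was not tested.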

How the data were processed

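Polyadenylated RNA from whole brains was sequenced in 9 libraries, 3 in each of 3 groups taken from the sample labels. The authors aligned paired reads to GRCm38 with HISAT2 2.1.0, without strand, and their processing notes also name FastQC 0.11.9, fastp, Bowtie2 2.3.4.1 and StringTie 1.3.3b. The authors deposited unnormalized read counts for each gene beside FPKM values, and the deposited FPKM equalled counts over library total and a fixed length of the gene. Counts of all libraries were fitted in 1 model with edgeR 4.0.16 (TMM scaling, filterByExpr with a minimum count of 10, quasi-likelihood test) in R 4.3.3, with Benjamini-Hochberg adjustment over 18501 genes and a threshold of 0.05. Libraries of a group differed by 14.3 to 109.5 times the counting variance, so none was counted as a repeat of another. The biological coefficient of variation was 36.5%. P-values measure the spread between these mice, including differences between their libraries in regional content. Alternatives were DESeq2 1.42.0, RLE size factors, library totals, other filters, limma 3.58.1 on log2(FPKM + 1) and log2(FPKM + 0.1), 2 groups only, replicate number as a block, and leaving out each library in turn. Scripts were tested on simulated data. The collagen genes and gene lists were chosen with earlier results of these data known. Values per library were given for genes with a mean of at least 1 FPKM or among the 4 with the smallest edgeR p in a comparison, and up to 3 genes with the smallest p in DNP against CON were named of each pathway list.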

Additional observations from a re-analysis of the deposited data

How the results depend on the processing

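Of 1125 values recomputed under alternatives for 66 results, 1059 kept their direction and side of the threshold. For values without a test, this meant a move by less than the spread or 1.5 times. No collagen gene had an adjusted p under 0.05 in any of the 19 alternative fits, so no fold change of these genes moved across the threshold. Some fits could also hardly move a fold change, such as that of DNP against CON without a BAC library. The tally is therefore not a measure of robustness. Of the 75 fold changes of named collagen genes, 31 had another sign in at least 1 fit. Deviations of same-numbered libraries from their group means correlated from -0.579 to 0.56. Libraries with different numbers were not compared in this way, so whether replicate numbers pair the libraries was not tested. With replicate number as a block, the collagen genes with an unadjusted p under 0.05 in BAC against DNP were 3 instead of 1. Over all genes the count was 382 instead of 438. In that fit the log2 fold changes in BAC against CON were -0.02 for Col15a1 and 0.28 for Col17a1. Collagen genes with an unadjusted p under 0.05 in DNP against CON were 8 with DESeq2 and 2 to 7 with 1 library left out. Over all genes the counts were 2521 and 1426 to 2222, against 2067 in the main fit. In BAC against DNP the collagen genes were 3 with DESeq2, 2 with only the 2 groups and 2 with limma on log2(FPKM + 0.1). With 1 library left out they were 0 to 4. Over all genes these counts were 635, 440, 439 and 216 to 1484, against 438 in the main fit, with the same limit on the genes counted. In BAC against CON the collagen genes were 0 to 6 with 1 library left out, beside 604 to 2693 of all genes. Without the 4 libraries with high brainstem sums the 3 counts were 10, 5 and 7, beside 3300, 1127 and 1762 of all genes, from fewer samples, with the lone BAC library assumed to vary like the other groups. In the same fit log2 fold changes were 0.12 for Col17a1 in DNP against CON, 0.09 for Col19a1 and 0.34 for Col9a1 in BAC against DNP, and -0.78 for Col15a1, 1.11 for Col17a1, -0.13 for Col1a2 and 0.09 for Col4a6 in BAC against CON, and the fibrillar medians were -0.03 in BAC against DNP and 0.02 in BAC against CON. With limma on log2(FPKM + 1) the fibrillar medians were 0.20 in DNP against CON and 0.09 in BAC against CON, and Col17a1 in BAC against CON was 0.05, or 0.29 with a pseudocount of 0.1. With 1 library left out, the fibrillar median ranged from 0.23 to 0.49 in DNP against CON, -0.31 to -0.02 in BAC against DNP and 0.05 to 0.47 in BAC against CON, and the basement membrane median from -0.36 to 0.29 and from -0.06 to 0.37 in the latter 2. Fold changes then ranged from -0.70 to 0.25 for Col6a3 and -0.53 to 0.11 for Col9a1 in BAC against DNP, and from -0.51 to 0.25 for Col15a1, -0.88 to 1.56 for Col17a1 and -0.85 to 0.36 for Col4a6 in BAC against CON. Correlations ranged from 0.46 to 0.89 for Col1a1 with Col1a2, 0.14 to 0.78 for Col4a5 with Col4a6, -0.44 to 0.05 for Col9a1 with Col9a2 and -0.41 to 0.21 for Col9a2 with Col9a3, which was 0.02 on log2(FPKM + 0.1). The fibrillar share of collagen RNA was 31.2% of summed counts and 24.6% of summed FPKM, which divides by gene length. The cause of the other differences was not tested. With 3 mice in a group, genes of a few CPM and genes that varied within groups could differ without being called.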
